A study of Rattus norvegicus with 4 samples.

Results

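Immediate early genes are switched on by growth factors, hormones and stress without any need for new protein synthesis, and their transcripts are short-lived. Many of them encode transcription factors, which pass the signal on, and others encode enzymes and small proteins that end the signal or arrest the stressed cell. In the testis, luteinising hormone induces such genes in Leydig cells and follicle-stimulating hormone in Sertoli cells. The 10 genes described here are Fos, Jun, Junb, Atf3, Egr1, Nr4a1, Klf6, Dusp1, Gadd45a and Ier3. They were taken by name, as every probe set that the platform annotation pairs with 1 of these symbols and no other. All 10 genes were found, on 26 of the 8799 probe sets of the array, or 26 of the 7006 with 1 gene symbol.

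The arrays came from whole rat testis. The animals had been given a diet lacking vitamin A from 20 days of age for 9 weeks, and so all groups share the deficiency. The groups were untreated deficient testis (VAD, 0 h) and deficient testis 4 h, 8 h and 24 h after retinol, the alcohol form of vitamin A, with 1 deposited sample (called an array here) each. The labels used here name no strain, no dose and no number of animals behind an array. No difference between arrays has a replicate check, and none was tested. The deposited values are ratios with a reference that is not stated, near 1 for most probe sets of the VAD array, and they keep no signal level. For this reason neither the level of a gene nor the presence of the tissue's defining transcripts could be checked. In whole testis, fewer cells of a type and less RNA per cell cannot be told apart.

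Changes are given as log2 differences between 2 arrays, on which 1 is a 2-fold difference. The noise of 1 probe set, taken from 1112 genes read by probe sets from 2 database sequences, came to 0.42, 0.51 and 0.57 at 4 h, 8 h and 24 h against VAD. It leaves out the spread between animals. The median of all 7006 probe sets lay at -0.09, -0.11 and -0.11 at these times. The 9 bacterial spike-in probe sets, for RNAs added in known amounts, had median changes of -0.55, -0.58 and -0.71. With each array scaled on its own median over these 9, every change would be higher by 0.55, 0.50 and 0.62. A smaller negative change would then turn positive, and a positive one would keep its sign. Signs are given for the values as deposited. Among the controls, probe sets at the 5' ends of actin, GAPDH and hexokinase had changes above those of their 3' partners, by 0.71, 1.09 and 1.01 on average. Where the probe sets of the 10 genes lie along their transcripts was not examined, and the part of this difference in their values was not tested.

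Dusp1 and Gadd45a held every member probe set that was at least 2-fold higher after retinol. At 4 h, 4 of the 26 member probe sets were at least 2-fold higher than on the VAD array, beside 2.21% of all probe sets, and 1 was at least 2-fold lower, beside 1.58%. At 8 h, 5 were at least 2-fold higher (4.04% of all) and 0 lower (2.53% of all). At 24 h, 5 were at least 2-fold higher (4.68% of all) and 1 lower (3.41% of all). As shares of the 26 these counts were 15.4%, 19.2% and 19.2% for higher values. The probe sets of a gene share their target, so the higher calls at each time stand for 2 genes. Over all 3 times, 19 of the 26 probe sets (73.1%) stayed within 2-fold of VAD, beside 88.5% of all probe sets. Of the 10 genes, 6 had no probe set outside it, as did 84.4% of all genes and 74.4% of the 1565 genes with 2 or more probe sets.

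The 26 probe sets had a median change of 0.22 at 4 h, 0.36 at 8 h and 0.22 at 24 h. These medians stand beside -0.09, -0.11 and -0.11 for all probe sets. They give more weight to genes with several probe sets. With probe sets averaged by gene, the 10 genes had medians of 0.21, 0.29 and 0.04, beside -0.09, -0.12 and -0.12 for all genes. At each time, 6 of the 10 genes lay above 0. Of the 26, 18 lay above 0 at 4 h, 19 at 8 h and 17 at 24 h, where 40.6%, 40.1% and 41.4% of all probe sets did so. With spike-in scaling, 11, 12 and 10 member probe sets were at least 2-fold higher, beside 12.0%, 12.5% and 18.1% of all. None of the 26 was then lower (0 each time), as were only 0.285%, 0.428% and 0.442% of all probe sets. Centring each array on its median left 4, 5 and 6 higher, beside 2.83%, 5.18% and 6.02% of all, and 0 lower, beside 1.11%, 1.67% and 2.36%. At a threshold of 1.5-fold, 8, 11 and 9 member probe sets were higher, beside 8.14%, 10.4% and 11.6% of all, and 2, 2 and 1 lower, beside 8.02%, 14% and 15.6%.

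**Figure D1:**
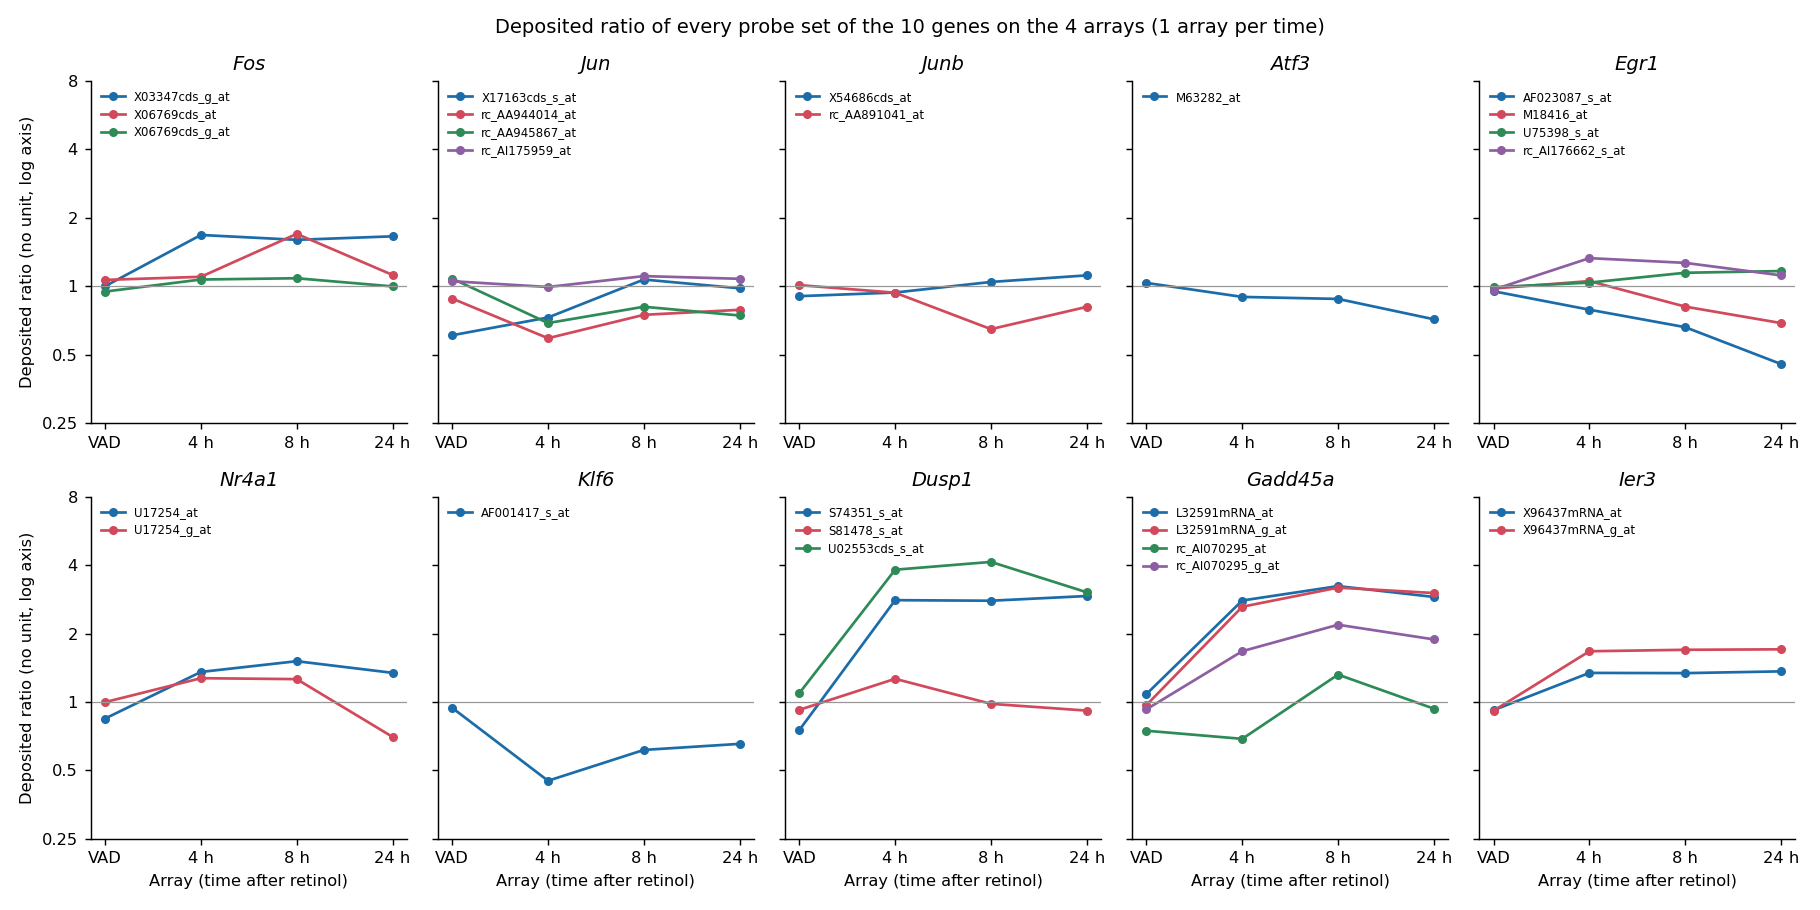
Deposited ratio (log axis, no unit) of each of the 26 probe sets on the VAD array and on the arrays 4 h, 8 h and 24 h after retinol. Each line is 1 probe set on 1 array per time, without error bars since no replicate exists; 2 of the 3 Dusp1 lines and 3 of the 4 Gadd45a lines stand above the rest at 8 h, and the single Klf6 line lies lowest at 4 h, at 0.450.

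Dusp1 encodes the phosphatase MKP-1, which removes phosphate from MAP kinases and so ends the signal that induces immediate early genes. Its probe set U02553cds_s_at had ratios of 1.09 on the VAD array, 3.82 at 4 h, 4.13 at 8 h and 3.04 at 24 h. Probe set S74351_s_at read 0.752, 2.80, 2.79 and 2.92 on the same arrays. Both were high on all 3 retinol arrays. The third probe set, S81478_s_at, read 0.923, 1.26, 0.981 and 0.916, and so was near its VAD value at 8 h and 24 h.

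Against VAD, U02553cds_s_at was thus 1.80, 1.92 and 1.47 higher at 4 h, 8 h and 24 h, or 3.49-fold, 3.78-fold and 2.78-fold. S74351_s_at was 1.90, 1.89 and 1.96 higher, which is 3.73-fold, 3.71-fold and 3.89-fold, and S81478_s_at stood at 0.45, 0.09 and -0.01. At 4 h the 2 high probe sets ranked 7th and 12th from the top of 7006. The 3 probe sets spanned 1.45, 1.83 and 1.97 on the log2 scale at the 3 times. Of the 348 genes with 3 probe sets, 20, 18 and 15 had a wider span, so Dusp1 was among the genes whose probe sets disagreed most. The low VAD ratio of S74351_s_at adds to its changes. If each retinol array is set against 1 and not against VAD, the mean of the 3 probe sets becomes 1.25, 1.17 and 1.01, beside 1.39, 1.30 and 1.14 against VAD. All 3 probe sets carry the suffix that Affymetrix gives to probes shared by more than 1 transcript.

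Gadd45a, the growth arrest and DNA damage gene that binds cell cycle and stress kinase proteins, was read by 4 probe sets from 2 database sequences. From the mRNA sequence, L32591mRNA_at read 1.08 on the VAD array, 2.79 at 4 h, 3.23 at 8 h and 2.90 at 24 h. Its companion L32591mRNA_g_at read 0.969, 2.62, 3.18 and 3.01. Both were high on each retinol array and differed by at most 0.22 in their changes. From the expressed sequence tag, rc_AI070295_g_at read 0.928, 1.67, 2.19 and 1.88. The last, rc_AI070295_at, read 0.747, 0.688, 1.32 and 0.934, so its 4 h value lay below its VAD value.

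The changes of the mRNA pair were 1.37, 1.58 and 1.42 for L32591mRNA_at and 1.44, 1.72 and 1.64 for L32591mRNA_g_at, 2.58-fold to 3.29-fold. Those of rc_AI070295_g_at were 0.85, 1.24 and 1.02, and those of rc_AI070295_at -0.12, 0.82 and 0.32. As a mean of the 4 probe sets Gadd45a was at 0.88, 1.34 and 1.10. Set against 1 and not against VAD, this mean was 0.77, 1.22 and 0.99, the last just short of 2-fold. The 4 probe sets spanned 1.56 at 4 h, wider than in all but 8 of the 95 genes with 4 probe sets, and 0.90 at 8 h, near the median span of those genes (0.94). At 8 h all 4 were higher than VAD, by 0.82 to 1.72.

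Ier3, which encodes a small stress-induced protein that affects cell survival, had 2 probe sets from 1 sequence. X96437mRNA_g_at read 0.915 on the VAD array, 1.67 at 4 h, 1.70 at 8 h and 1.70 at 24 h. X96437mRNA_at read 0.920, 1.34, 1.34 and 1.36. Both were higher on all retinol arrays, with little difference among these. The changes were 0.87, 0.89 and 0.90 for the first and 0.54, 0.54 and 0.57 for the second, short of 2-fold throughout. The mean was 0.71, 0.72 and 0.73, and the 2 probe sets differed by 0.32 to 0.35 each time.

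**Figure D2:**
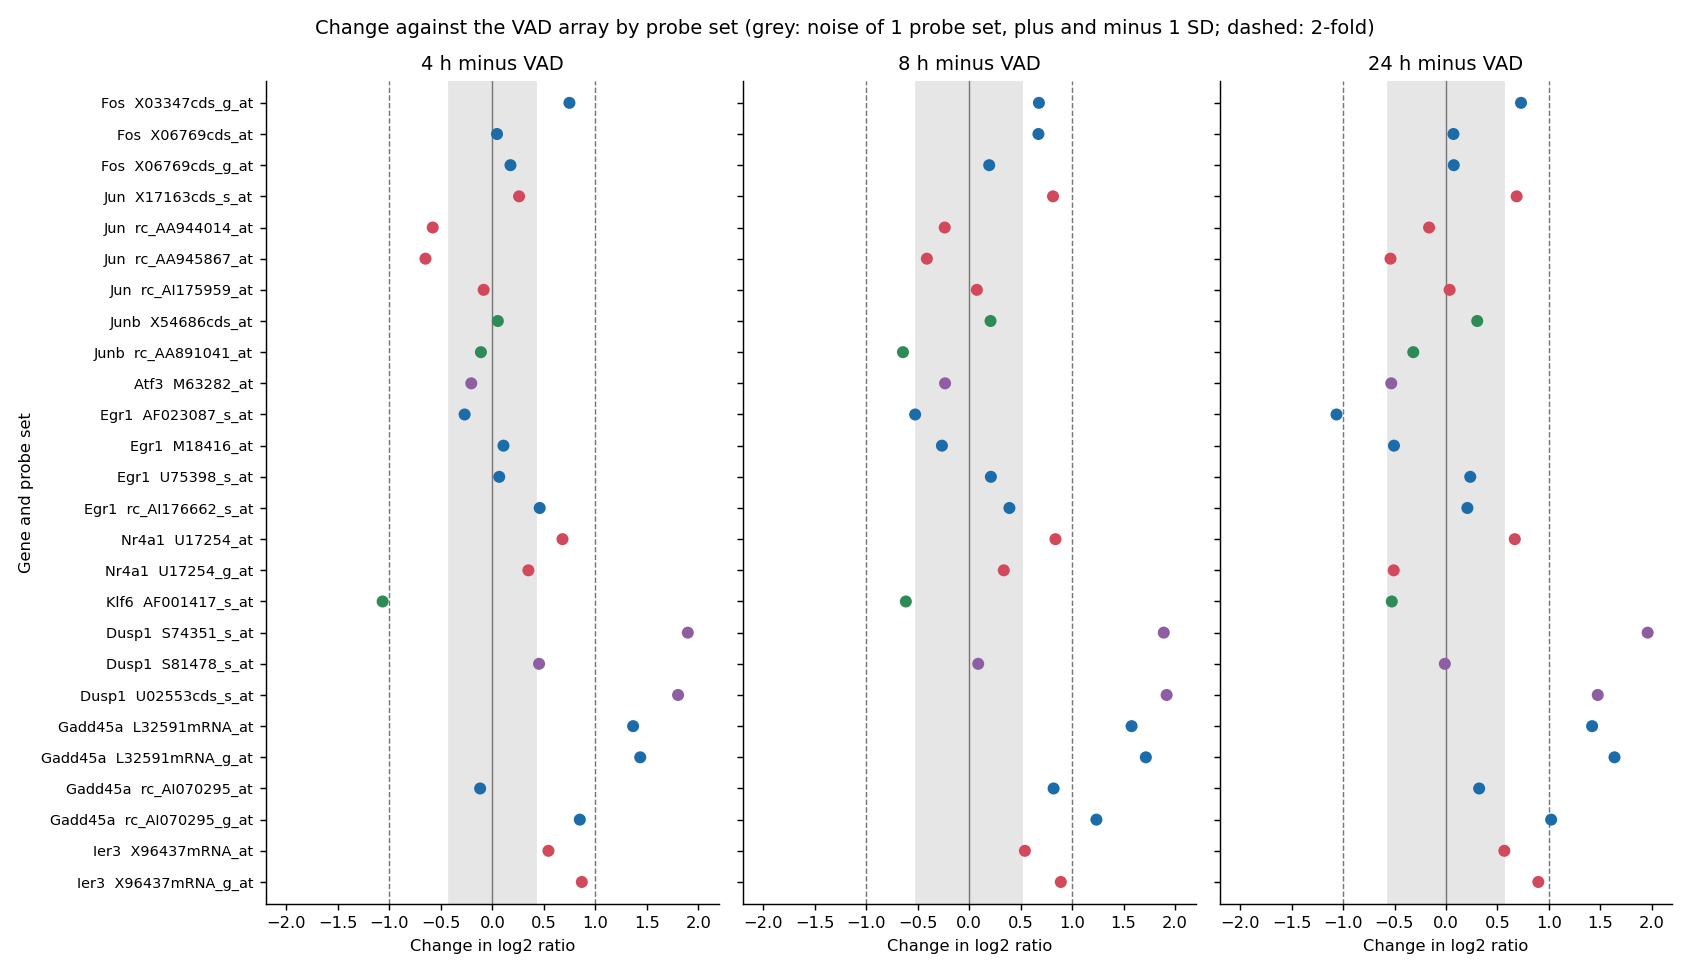
Change in log2 ratio against the VAD array for each member probe set (rows) at 4 h, 8 h and 24 h, with the noise of 1 probe set as a grey band of 1 SD to each side (0.42, 0.51 and 0.57) and 2-fold as dashed lines. Probe sets of Dusp1 and Gadd45a lie past the upper dashed line at each time, and Klf6 at 4 h and 1 Egr1 probe set at 24 h lie past the lower one.

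Klf6 encodes a zinc finger factor of the Krüppel-like family that binds GC-rich promoters. Its only probe set, AF001417_s_at, read 0.942 on the VAD array, 0.450 at 4 h, 0.615 at 8 h and 0.654 at 24 h. The 4 h array was the lowest and the later arrays lay between it and VAD. The changes were -1.07, -0.62 and -0.53, so that Klf6 was 2.09-fold lower at 4 h and short of 2-fold after that. It ranked 89th from the bottom of 7006 probe sets at 4 h. With each array centred on its median the 4 h change was -0.97, and with spike-in scaling -0.52, neither of which reaches 2-fold.

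Egr1, a zinc finger factor induced by serum and growth factors, was read by 4 probe sets that parted with time. AF023087_s_at read 0.951 on the VAD array, 0.789 at 4 h, 0.661 at 8 h and 0.455 at 24 h. M18416_at read 0.978, 1.05, 0.814 and 0.689. Both were lowest at 24 h. In contrast, U75398_s_at read 0.991, 1.04, 1.15 and 1.17, and rc_AI176662_s_at 0.967, 1.33, 1.27 and 1.12.

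At 24 h the changes of the 4 Egr1 probe sets were -1.06, -0.51, 0.24 and 0.21 in that order. The first, 2.09-fold lower, was the one member probe set past 2-fold on the low side at that time. With centring it stood under 2-fold, as no member probe set was then 2-fold lower. The mean of the 4 was 0.09, -0.05 and -0.28 at 4 h, 8 h and 24 h. The noise of a mean of 4 probe sets was not estimated. Their span at 24 h was 1.30, with a wider one in 32 of the 95 genes with 4 probe sets.

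Nr4a1 encodes the orphan nuclear receptor Nur77, which in Leydig cells is induced by luteinising hormone and acts on steroidogenic genes. U17254_at read 0.845 on the VAD array, 1.36 at 4 h, 1.51 at 8 h and 1.34 at 24 h. U17254_g_at, from the same sequence, read 0.998, 1.27, 1.26 and 0.702. Both were higher than VAD at 4 h and 8 h, while at 24 h 1 was higher and 1 lower. The changes of the first were 0.68, 0.84 and 0.67 and those of the second 0.35, 0.34 and -0.51. The gap of 1.18 at 24 h compares with a median span of 0.44 among the 1073 genes with 2 probe sets, of which 98 had a wider one. The mean was 0.52, 0.59 and 0.08, the last of which joins values of opposite sign.

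Fos and the Jun proteins pair through leucine zippers into the factor AP-1. For Fos, X03347cds_g_at read 1.001 on the VAD array, 1.68 at 4 h, 1.60 at 8 h and 1.66 at 24 h. X06769cds_at read 1.07, 1.10, 1.70 and 1.12, and was high on the 8 h array only. X06769cds_g_at, from the same sequence as X06769cds_at, stayed between 0.948 and 1.09. No Fos probe set reached 2-fold. The changes were 0.75, 0.68 and 0.73 for the first, 0.05, 0.67 and 0.07 for X06769cds_at, and 0.18, 0.19 and 0.08 for X06769cds_g_at. The annotation pairs X03347cds_g_at with another accession than the one in its name, so its assignment to rat Fos is less certain.

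Jun, the main partner of Fos, was read by 4 probe sets from 4 sequences, which did not move alike. X17163cds_s_at had the lowest VAD ratio of all 26 probe sets, 0.609, and read 0.729, 1.07 and 0.980 after retinol. Against VAD it stood at 0.26, 0.81 and 0.69. The other 3 were below their VAD values at 4 h. Of these, rc_AA945867_at read 1.08 on the VAD array, 0.689 at 4 h, 0.813 at 8 h and 0.744 at 24 h, with changes of -0.65, -0.41 and -0.54. The probe set rc_AA944014_at read 0.883, 0.591, 0.749 and 0.788, with changes of -0.58, -0.24 and -0.16. The last, rc_AI175959_at, stayed between 0.993 and 1.11. The mean was -0.26, 0.06 and 0.00, and with 1 as the comparator it was -0.44, -0.12 and -0.17.

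Junb, a Jun relative with weaker activating function, had 1 probe set to each side of 0. X54686cds_at read 0.905 on the VAD array, 0.939 at 4 h, 1.04 at 8 h and 1.12 at 24 h, with changes of 0.05, 0.21 and 0.30. The other, rc_AA891041_at, read 1.01, 0.937, 0.648 and 0.812, with changes of -0.11, -0.64 and -0.32. The mean was -0.03, -0.22 and -0.01. Atf3, a stress-induced factor of the ATF and CREB family that can pair with Jun, had a single probe set, M63282_at. It read 1.03 on the VAD array, 0.898 at 4 h, 0.880 at 8 h and 0.716 at 24 h, and its changes of -0.20, -0.23 and -0.53 were inside the noise of 1 probe set.

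**Figure D3:**
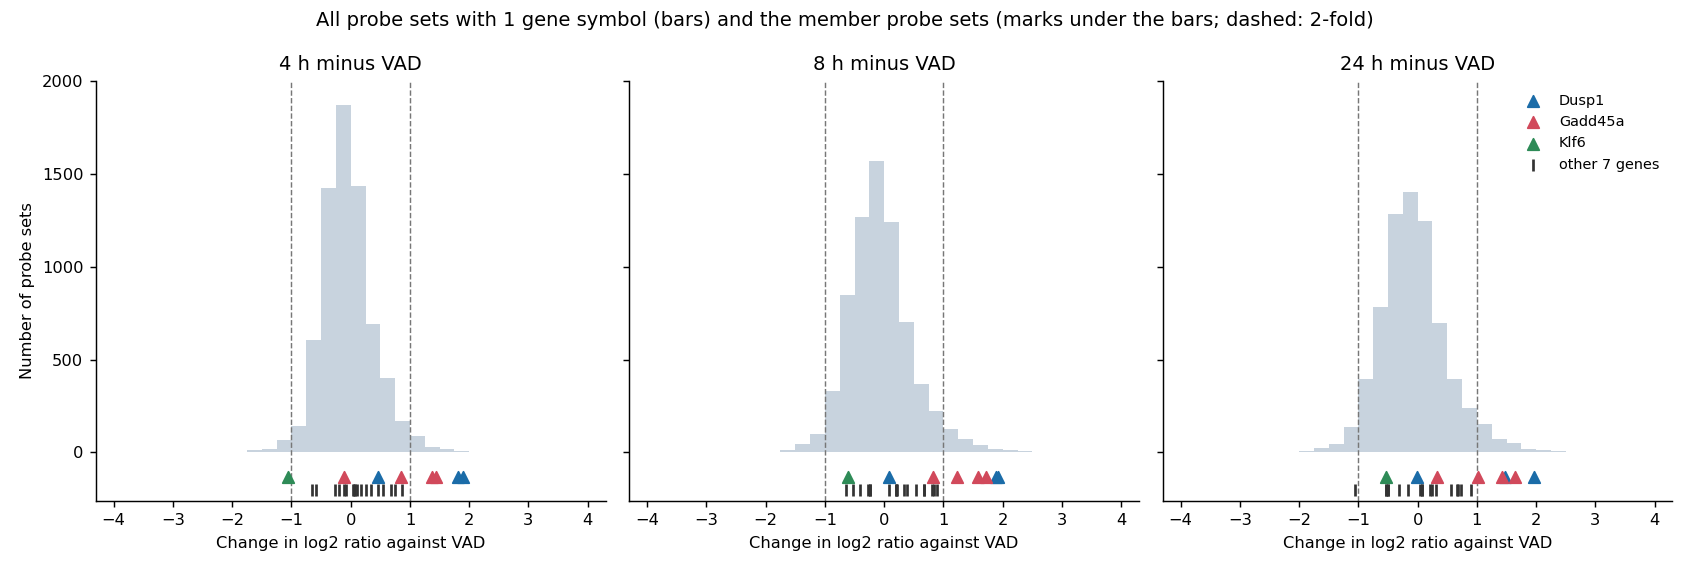
Number of probe sets (vertical axis) by change in log2 ratio against VAD (horizontal axis) for all 7006 probe sets with 1 gene symbol, with the member probe sets marked under the bars: triangles for Dusp1, Gadd45a and Klf6, ticks for the other 7 genes. At 4 h the 2 rightmost triangles are Dusp1 at 1.80 and 1.90, far from the median of all probe sets at -0.09.

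Between successive retinol arrays no member probe set differed by 2-fold. At 8 h against 4 h, 0 of 26 were at least 2-fold higher and 0 lower, beside 0.885% and 1.04% of all probe sets. For 24 h against 8 h the counts were again 0 and 0, beside 0.899% and 0.856%. At 1.5-fold, 2 were higher and 0 lower in the first step (4.4% and 4.17% of all), and 0 higher and 2 lower in the second (3.77% and 3.83%). The median change was 0.13 at 8 h against 4 h and -0.12 at 24 h against 8 h, with all probe sets at -0.03 and 0.00 and a noise of 1 probe set of 0.33 and 0.32. The greatest differences at 8 h against 4 h were in rc_AI070295_at of Gadd45a (0.94) and X06769cds_at of Fos (0.63). At 24 h against 8 h they were in U17254_g_at of Nr4a1 (-0.84) and X06769cds_at of Fos (-0.60). All 4 Gadd45a probe sets were higher at 8 h than at 4 h, by 0.21 to 0.94, and lower at 24 h than at 8 h, by values of -0.08 to -0.50. All 4 Jun probe sets were also higher at 8 h than at 4 h, by 0.16 to 0.55. Those of Dusp1 differed by -0.37 to 0.11 in the first step and by -0.44 to 0.07 in the second. The smaller of the Gadd45a and Jun differences lay inside the noise of 1 probe set. The Gadd45a probe sets come from only 2 sequences. The share of all genes whose probe sets move alike is not given.

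The promoters of the 3 genes whose mean passed 2-fold, Dusp1, Gadd45a and Klf6, are shown beside that of Egr1, a gene known for its serum response. Each window holds 250 bases before and 50 after the annotated start in RefSeq's GRCr8 assembly, 5' to 3' on the gene's strand. Promoters of 6 of the 10 genes were matched. Capitals mark the core of the cyclic AMP response element (CRE, TGACG), the E-box CACGTG and the CArG box bound by serum response factor, on either strand.
Dusp1: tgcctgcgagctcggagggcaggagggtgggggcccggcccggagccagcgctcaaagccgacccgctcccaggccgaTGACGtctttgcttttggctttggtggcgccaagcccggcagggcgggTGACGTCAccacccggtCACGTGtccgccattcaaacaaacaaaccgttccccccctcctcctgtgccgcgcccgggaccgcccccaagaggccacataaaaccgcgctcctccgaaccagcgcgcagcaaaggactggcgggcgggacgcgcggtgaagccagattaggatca
Gadd45a: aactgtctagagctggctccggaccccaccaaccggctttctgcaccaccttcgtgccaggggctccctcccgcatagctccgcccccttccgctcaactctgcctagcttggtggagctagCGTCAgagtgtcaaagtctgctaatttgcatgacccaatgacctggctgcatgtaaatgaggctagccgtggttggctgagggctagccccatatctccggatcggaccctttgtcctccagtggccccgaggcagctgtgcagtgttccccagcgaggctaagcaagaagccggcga
Klf6: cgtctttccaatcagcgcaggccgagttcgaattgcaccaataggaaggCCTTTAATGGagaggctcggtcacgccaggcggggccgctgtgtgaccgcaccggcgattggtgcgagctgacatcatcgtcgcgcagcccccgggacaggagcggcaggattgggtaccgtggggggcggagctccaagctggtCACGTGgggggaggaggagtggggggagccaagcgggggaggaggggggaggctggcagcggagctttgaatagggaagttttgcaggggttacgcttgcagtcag
Egr1: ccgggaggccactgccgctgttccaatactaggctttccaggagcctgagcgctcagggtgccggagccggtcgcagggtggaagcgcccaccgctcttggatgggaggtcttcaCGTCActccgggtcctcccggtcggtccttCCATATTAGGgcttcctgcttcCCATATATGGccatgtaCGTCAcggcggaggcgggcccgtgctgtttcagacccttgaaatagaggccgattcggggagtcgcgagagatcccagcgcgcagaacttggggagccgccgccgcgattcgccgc

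The Dusp1 window lies at chr10:17184603-17184902 on the plus strand, that of Gadd45a at chr4:97486750-97487049 on the minus strand, that of Klf6 at chr17:69458429-69458728 on the minus strand and that of Egr1 at chr18:26736828-26737127 on the plus strand. The Dusp1 window held the full CRE, TGACGTCA, at bases -124 to -117 from the start, a sequence present in 1.83% of the 33469 windows searched. It contains 2 of the 3 CRE cores of this window, on opposite strands, and the other core lies at -172 to -168. The CRE core was in 5 of the 6 member windows and in 21.2% of all windows, and Nr4a1 had 4 of them. The CArG box was in the Egr1 window (2 matches) and in that of Klf6 (1), and in 1.64% of all. The E-box was in those of Klf6 and Dusp1, and in 6.42% of all. CCAAT was in 4 of the 6 and 37.5% of all, and TATAAA in 1, Junb, and 14.2% of all. Neither the AP-1 site TGANTCA (7.33% of all) nor the retinoic acid response element of the DR5 type (0.382% of all) was in any of the 6. A match describes letters in these windows only.

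**Figure D4:**
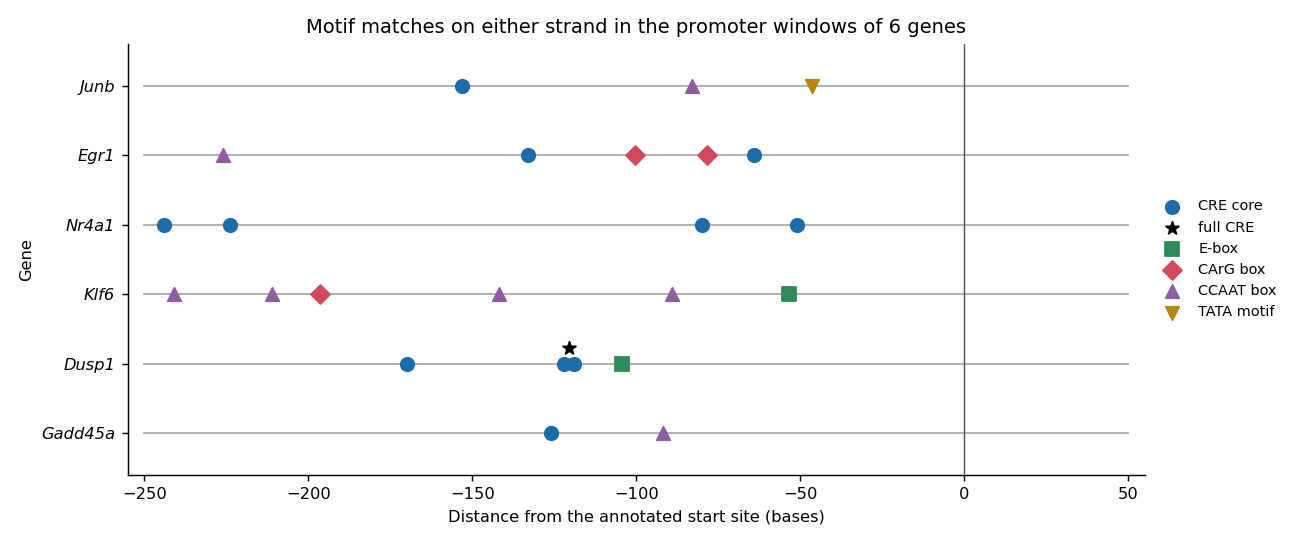
Positions of motif matches on either strand (symbols) in the promoter windows of the 6 genes matched, with distance from the annotated start site in bases on the horizontal axis. The full CRE of Dusp1 sits at -124 to -117, and the 2 CArG boxes of Egr1 lie between its 2 CRE cores.

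Of 82 measured genes on 6 lists of relatives, partners, other immediate early genes, upstream kinases and stress genes, 1 was at least 2-fold higher at 4 h, 2 at 8 h and 2 at 24 h. At least 2-fold lower were 0, 0 and 2. For all 4736 genes, as means over their probe sets, the shares were 1.41%, 2.83% and 3.27% higher and 1.25%, 1.88% and 2.64% lower. The median of the 82 was -0.03, -0.02 and -0.04, beside -0.09, -0.12 and -0.12 for all genes.

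Among 16 stress and DNA damage response genes, Cdkn1a, the p21 inhibitor of cyclin-dependent kinases, was higher after retinol. Its probe set L41275cds_s_at read 1.12 on the VAD array, 2.86 at 4 h, 3.52 at 8 h and 2.29 at 24 h, and U24174_at read 0.790, 1.47, 1.39 and 0.916. The mean change was 1.12, 1.23 and 0.62. Ccng1, the cyclin G1 gene, read 1.16 on the VAD array, 2.12 at 4 h, 2.37 at 8 h and 2.58 at 24 h on its single probe set. Its changes were 0.87, 1.03 and 1.15. Asns, the asparagine synthetase gene of the amino acid response, read 1.12, 0.919, 0.695 and 0.510 and stood at -1.14 at 24 h. The list had 1, 2 and 1 genes at least 2-fold higher and 0, 0 and 1 lower, and its median was -0.15, -0.22 and -0.27.

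Of 7 AP-1 and ATF partners, Atf2, a factor that pairs with Jun, passed 2-fold as a mean at 24 h (1.05), from probe sets at 1.94 and 0.16. Jund was at 0.45, 0.12 and 0.70, and the list median was 0.33, 0.12 and 0.41. None of the 9 measured EGR, NR4A and KLF relatives passed 2-fold. Klf4 was at -0.62, -0.72 and -0.55 and Nr4a2, a relative of Nr4a1, at -0.39, 0.19 and 0.53. None of the 5 relatives of the phosphatase, GADD45 and IER genes passed it either. In that group Dusp6, a phosphatase specific to ERK kinases, had a mean of 0.62 at 24 h from probe sets at -0.50 and 1.75, and Dusp7 was at -0.33.

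Of the 29 other immediate early genes, Mycn, a MYC family factor, was at -0.24, -0.71 and -1.39 and was the one gene past 2-fold. Myc itself was at -0.60, -0.84 and -0.50. The median of these 29 was -0.06, -0.09 and -0.05, close to that of all genes. The 16 kinases and factors upstream, none of which passed 2-fold, had medians of -0.06, -0.03 and -0.05. Map2k2, which encodes a kinase that activates ERK, was at -0.77 and the p38 kinase kinase gene Map2k6 at -0.55 at 24 h.

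**Figure D5:**
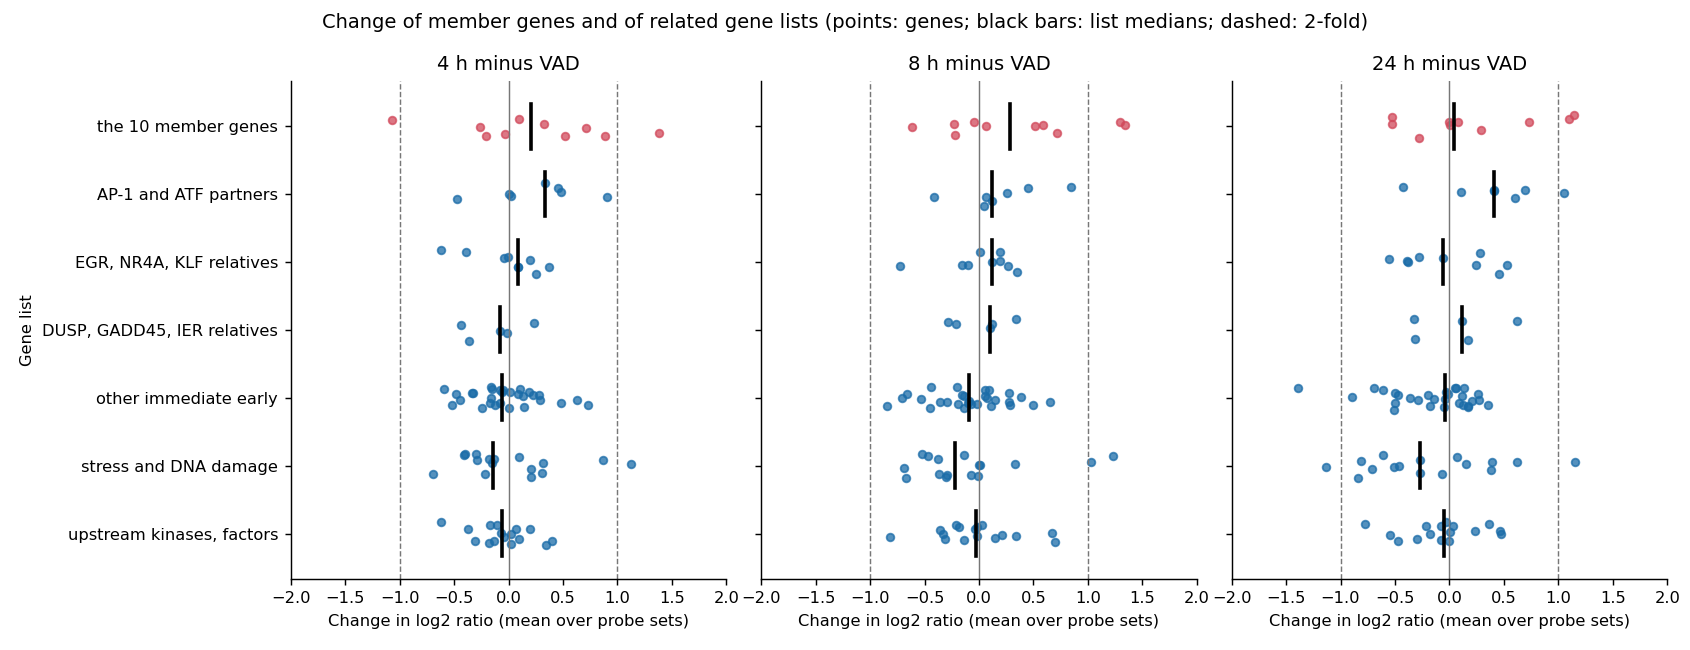
Change in log2 ratio against VAD, as the mean over probe sets, for the 10 member genes and the genes of the 6 related lists (points, spread vertically only for legibility), with list medians as black bars and 2-fold as dashed lines. At 4 h the 10 member genes reach from -1.07 to 1.39 around a median of 0.21, and the 29 other immediate early genes from -0.60 to 0.73 around a median of -0.06.

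Over the 3 changes against VAD, which share that array, the genes nearest to Dusp1 by Euclidean distance were the choline kinase gene Chka (0.23), the Notch pathway gene Nrarp (0.25) and Ceacam12 (0.26). Chka, from 3 probe sets, was at 1.22, 1.17 and 1.22. Nearest to Gadd45a were Pik3r3, a regulatory subunit of PI 3-kinase (0.09), Gcn1 (0.10) and the kinase gene Nek9 (0.12), each from 1 probe set. Nearest to Klf6 were the vomeronasal receptor gene Vom1r102 (0.14), the secretoglobin gene Scgb1d4 (0.16) and the aldo-keto reductase gene Akr1c13 (0.20). These genes were picked for having the smallest distances of all genes, so their closeness is no test of a shared pattern.

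Markers of testis cell types were also different between the arrays. For all genes, the medians at 4 h, 8 h and 24 h were -0.09, -0.12 and -0.12. Of all genes, 1.41%, 2.83% and 3.27% were at least 2-fold higher, and 1.25%, 1.88% and 2.64% lower. The 12 measured leukocyte markers had medians of -0.04, -0.02 and 0.26 at 4 h, 8 h and 24 h, with 0, 0 and 2 at least 2-fold higher and 1 lower each time. The 11 spermatid and spermatocyte markers were at 0.74, -0.20 and -0.41, with all 11 above 0 at 4 h and 1 at 8 h. Of these, 2, 0 and 0 were at least 2-fold higher and 0, 0 and 1 lower. The 7 Leydig markers were at 0.19, 0.12 and -0.59, with 0, 1 and 1 at least 2-fold higher and 0, 0 and 3 lower. The higher one was Nr5a1, which encodes the nuclear receptor SF-1, at 0.78, 1.24 and 1.63 on its single probe set. The 3 lower at 24 h were Cyp11a1 at -1.95, Cyp17a1 at -1.63 and Fdx1, as a mean of 2 probe sets, at -1.28. The 12 Sertoli markers had medians of 0.21, 0.05 and 0.04, with 0, 2 and 3 at least 2-fold higher and 0 lower each time. These were Krt18 and the connexin 43 gene Gja1 at 8 h, and Gja1, Wt1 and the stem cell factor gene Kitlg at 24 h. Gja1 was at 0.68, 1.05 and 1.02, and Wt1, as a mean of 3 probe sets, at 0.64, 0.94 and 1.03. The Wt1 probe sets ranged from -0.16 to 1.10 at 4 h and from 0.07 to 1.59 at 24 h. Of the 12 Sertoli markers, 7, 6 and 6 lay above 0 at the 3 times. The lowest each time was Vim, at -0.65, -0.71 and -0.56. The 4 endothelial markers were at -0.25, 0.06 and 0.07, with 1 at least 2-fold lower each time. The part of cell composition in the values of the 10 genes was not tested.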

How the data were processed

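Whole testis RNA (10 micrograms per sample, per the labels' protocols) was measured on the Affymetrix Rat Genome U34 array in 4 samples, 1 per group. The authors deposited linear ratios per probe set. Per the submitters' processing notes, GCOS and MAS5 were used (versions not given in the sources used here). What the ratios refer to, how arrays were scaled and whether samples were pooled is not stated there. Depth does not apply to arrays, and the number of arrays limits the precision.

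Of 8799 probe sets, 59 were controls, 308 had several symbols, 1426 were not listed in the annotation and 7006 had 1 symbol, updated through Entrez IDs (6985 found in the RefSeq table). Ratios were put on the log2 scale and arrays subtracted with Python 3.11.15 and pandas 2.3.3. For genes, the probe sets were averaged. With 1 array per group no test was made, and values were counted at 2-fold. Noise is the SD of the difference between 2 probe sets of a gene, over the square root of 2, and its calculation was tested on simulated data.

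The 10 genes and the lists were chosen with earlier results of these data known. Named are all member probe sets, list genes past 2-fold at any time, otherwise the 2 of a list with the largest change at 24 h, and the 3 genes nearest to each member past 2-fold. Jund, Myc and the marker genes named were added after their values were seen. Alternatives were centring, spike-in scaling, 1 in place of VAD, leaving out probe sets of shared probes, a 1.5-fold threshold and the median over probe sets.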

Additional observations from a re-analysis of the deposited data

Results flagged for a closer look

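Of the 26 member probe sets, 5 stood on opposite sides of VAD at 4 h and 24 h, each on 1 array per time. The share of all probe sets that did so is not given, so the count has no background beside it. Some lay near 0: rc_AI175959_at stood at -0.08 and 0.04, and S81478_s_at at -0.01 at 24 h. The differences between the times were not tested. The change at 24 h minus that at 4 h was -0.86 for U17254_g_at of Nr4a1, -0.61 for M18416_at of Egr1, -0.46 for S81478_s_at of Dusp1, 0.44 for rc_AI070295_at of Gadd45a and 0.12 for rc_AI175959_at of Jun. The noise of 1 probe set between these arrays was 0.38.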

How the results depend on the processing

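The counts of member probe sets at least 2-fold higher (4, 5 and 5 at 4, 8 and 24 h) were 4, 5 and 4 against 1 in place of VAD (2.74%, 3.74% and 4.25% of all probe sets), and 4, 5 and 6 with centring (2.83%, 5.18% and 6.02%). They were 11, 12 and 10 with spike-in scaling (12.0%, 12.5% and 18.1%), which moves all genes up by 0.55, 0.50 and 0.62. Without probe sets of shared probes they were 2, 3 and 3. Of the 26 member probe sets, 8 are of that kind, among them every Dusp1 probe set and that of Klf6, which leave no value. The share of all remaining probe sets is not given for this setting. The fall in these counts therefore has no background beside it. At 1.5-fold the counts of higher member probe sets were 8, 11 and 9. The counts at least 2-fold lower (1, 0 and 1) were 0 at each time with centring, with spike-in scaling and without shared probes. Of all probe sets, 1.11%, 1.67% and 2.36% were lower with centring, and 0.285%, 0.428% and 0.442% with spike-in scaling. At 1.5-fold, 2, 2 and 1 member probe sets were lower, beside 8.02%, 14% and 15.6% of all. With spike-in scaling the median change over member probe sets was 0.77, 0.86 and 0.84 at 4, 8 and 24 h. The rise of 0.55, 0.50 and 0.62 in these medians is common to all probe sets. Between successive arrays, an alternative chosen after seeing the data, 2 probe sets were at least 1.5-fold higher at 8 h than at 4 h and 2 lower at 24 h than at 8 h. As a median over probe sets, Dusp1 was at 1.89 at 8 h, beside a mean of 1.30. Of the 30 gene means against VAD, 10 changed sign with spike-in scaling, among them Klf6 at 24 h (0.09, beside -0.53) and Egr1 at 24 h (0.34, beside -0.28), 3 did so with centring and 3 against 1, as did 2 of the 24 left as a median over probe sets and 2 of the 24 left without shared probes. None of these was past 2-fold at that time. No paired analysis was possible because each group holds 1 sample. Ratios keep no signal over background, so dim probe sets could not be set aside.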
